A study of Danio rerio with 14 samples.

Results

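Isolated Rad21 sites of the 2.5 hpf zebrafish embryo (hpf, hours post fertilisation) are peaks with no close neighbour in a list that holds many dense runs. A peak was counted as isolated when no other peak of the 2.5 hpf list lay within 10 kb, when its 1 Mb window held fewer than 20 peaks of that list, and when it was not on chromosome 4. The sites were thus chosen by the measured positions of the 2.5 hpf peaks, and this left 580 sites among the 2011 Rad21 peaks on chromosomes 1 to 25, or 28.8% of them, and among 41309 peaks in all lists of the series. The other 1431 peaks of 2.5 hpf comprised 518 in small runs, 595 in crowded 1 Mb windows and 318 on chromosome 4. Among these, 14 in crowded windows and 58 on chromosome 4 also had no neighbour within 10 kb. The isolated sites covered 174.8 kb in all, against 805.9 kb for the whole 2.5 hpf list.

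Rad21 is the kleisin subunit of cohesin, the ring complex that holds sister chromatids together and extrudes chromatin loops. Cohesin can be loaded at many places and is known to accumulate where CTCF, a zinc finger protein bound to DNA, halts it. At 2.5 hpf the embryo divides rapidly on maternal products, before its own genome is broadly transcribed, so that chromatin binding at this stage precedes the main wave of zygotic transcription.

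Rad21 was immunoprecipitated from pooled whole embryos of strain AB/PS at 2.5, 4.5 and 10 hpf, with an antibody made for the study, and CTCF was immunoprecipitated at 10 hpf. Each of these 4 groups had 2 libraries from independent collections of embryos, and each stage had 2 input libraries without antibody, 14 samples in all. At 2.5 hpf 2000 embryos were pooled, chromatin was sheared in 6 cycles and reads were 125 bp, against 1000 embryos, 10 cycles and 50 bp reads at 4.5 and 10 hpf, so stage and library preparation cannot be told apart. The peak caller and its thresholds also changed with the stage: MACS2 with no fold requirement at 2.5 hpf, and HOMER with a required 4-fold enrichment at 4.5 and 10 hpf. The deposited lists hold 1 set of peaks per stage and antibody without values for single libraries. The spread between replicates is therefore unknown and no test was made. Every interval below is an exact 95% interval that covers counting error only, and every position is on the Zv9 build. Gene annotation and sequence of that build were not used here, so the sites are named by position.

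The isolated sites were mostly narrow and rested on few tags. Their width had a median of 250 bp (quartiles 212 and 321, range 209 to 2895), and 130 sites, or 22.4% (19.1 to 26), had the smallest width of the list, 209 bp, which is also the fragment length that the peak caller had estimated. The pileup, the number of extended tags over the summit, had a median of 11 (quartiles 9 and 16, range 6 to 418). A count of 11 tags has a Poisson interval of 5.49 to 19.7, and 210 sites, or 36.2%, had a pileup of 9 or less. Median pileup among the other 2.5 hpf peaks was 62 (quartiles 25 and 112) and their median width 347 bp (quartiles 257.5 and 499). By part, the median pileup was 22 on chromosome 4, 72 in small runs and 77 in crowded windows. These values come from the contrast that chose the sites and describe them only.

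Fold enrichment over input, the authors' value per peak, had a median of 5.00 at the isolated sites (quartiles 4.25 and 5.80, range 1.92 to 144) and of 3.41 at the other 2.5 hpf peaks. Among the latter, the median was 4.47 on chromosome 4, 3.34 in small runs and 3.20 in crowded windows. Enrichment of 4 to 7-fold was listed for 402 isolated sites, or 69.3%, a band that was not counted over the whole 2.5 hpf list. Enrichment of at least 4-fold was listed for 467 isolated sites, or 80.5%, where the whole 2.5 hpf list has 45.2%. The share was 66.4% on chromosome 4, 26.3% in small runs and 15.8% in crowded windows. The whole 2.5 hpf list has 38 peaks of 10-fold or more (1.89% of it), and 36 of them were isolated. The remaining pair lay in a small run on chromosome 3, at chr3:26912527-26912979 and chr3:26919330-26919782, each 453 bp wide, with 29.8-fold and 35.5-fold enrichment.

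Input differed between isolated and other peaks too. The background that the caller had modelled was recovered from pileup and fold. Isolated sites had a median of 1.40 times the genome average (quartiles 1.08 and 2.56). The other 2.5 hpf peaks had a median of 26 times (quartiles 7.73 and 47.9). Among the latter, peaks on chromosome 4 were closest to the isolated sites, at 5.60 times, with 32.2 in small runs and 32.5 in crowded windows. A background under 2 times the average was found for 373 isolated sites, or 64.3% (60.3 to 68.2), and one over 10 times for 65, or 11.2% (8.76 to 14.1). On a low background a peak needs a higher fold to pass the q threshold, so fold and background are not independent measures here. The 3 isolated sites of lowest background, all at the genome average, were chr1:579484-580352 (15.4-fold, 26 tags), chr1:8685998-8686206 (5.13-fold, 8 tags) and chr1:20168791-20169110 (6.83-fold, 11 tags), the first by position of 70 at that value.

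**Figure D1:**
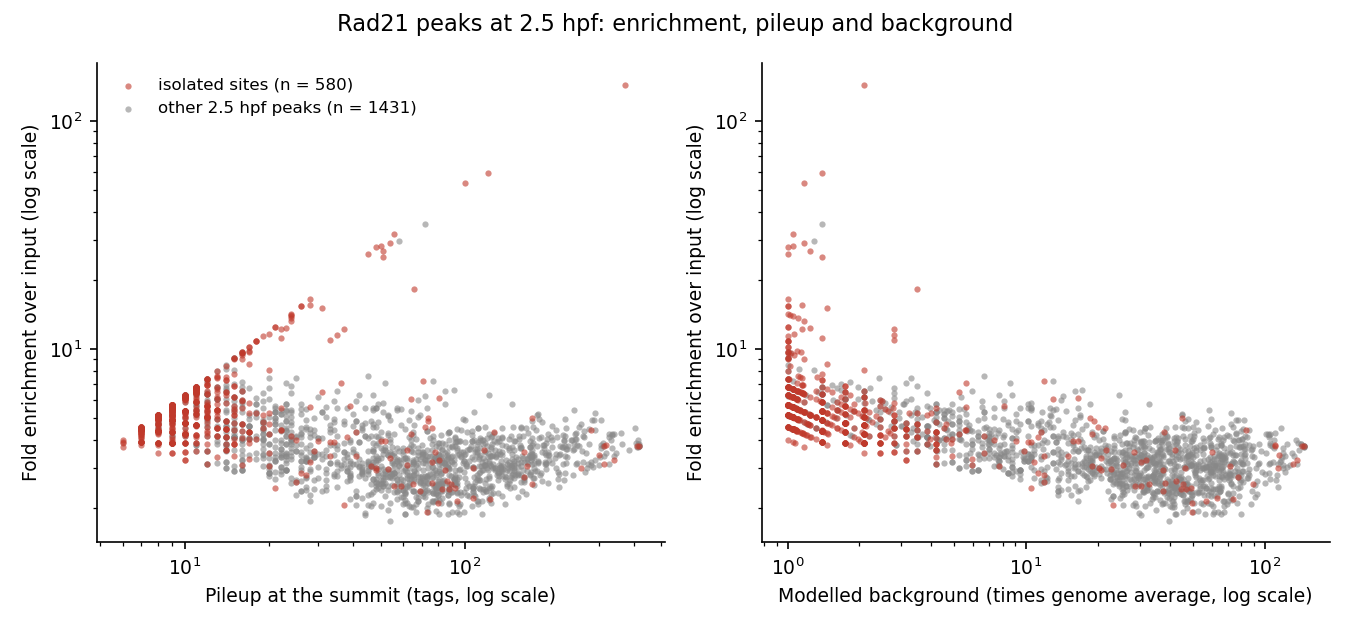
Fold enrichment over input (log scale) of each 2.5 hpf Rad21 peak against its pileup in tags (left, log scale) and against its modelled background in multiples of the genome average (right, log scale), with 580 isolated sites in red and 1431 other peaks in grey. Most isolated sites sit at a pileup under 20 and a background under 2, and 36 of the 38 points above 10-fold are isolated sites.

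The modelled background could be read as a number of input tags. At all 580 sites it equalled either the genome average or a whole number of input tags in the fragment-length, 1 kb or 10 kb window, scaled by the tag totals in the header. It was the genome average itself at 70 sites, or 12.1%, against 1.19% of the other 2.5 hpf peaks. At 301 sites, or 51.9%, it came from the fragment-length window, with a median of 6 input tags. Of these, 205 rested on 10 tags or fewer, or 35.3% of all isolated sites, against 5.94% of the other 2.5 hpf peaks. The 1 kb window gave it at 120 sites, with a median of 19 tags, and the 10 kb window at 89, with a median of 152. The shortest window with a whole number was taken, so a 10 kb count that is a multiple of 10 was read as a 1 kb count. The split between these windows is thus approximate, here and for single sites below. A background of 1.40 times the average, the median of the isolated sites, corresponds to 4 input tags in the fragment-length window, a count whose Poisson interval is 1.09 to 10.2. No modelled background lay below the genome average. Intervals of input tags, here and for single sites below, do not allow for this floor or for the choice among windows. Among the other 2.5 hpf peaks the fragment-length window gave the background in 83.7% of cases, with a median of 89.5 tags.

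A small set of isolated sites stood far above the rest. The highest, chr8:5006471-5007368, had a pileup of 372 tags (335 to 412) on a background of 6 input tags (2.2 to 13.1), which gave 144-fold enrichment over 898 bp. With 1 tag kept per position the pileup cannot exceed 418. The interval does not allow for this ceiling, which limits pileup and fold alike. Second was chr18:29352022-29354916, the widest isolated site at 2895 bp, with a pileup of 121 tags (100.4 to 145), 4 input tags and 59.3-fold enrichment. The third, chr11:3922037-3923047, was 1011 bp wide and had a pileup of 100 tags (81.4 to 122) and 53.6-fold enrichment, on 16 input tags in the 1 kb window. The modelled background of these 3 was 2.1, 1.40 and 1.17 times the average.

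The next 7 sites fell within a narrow range of 25.3 to 31.8-fold. Those were chr18:12173113-12173496 (31.8-fold, 56 tags), chr3:47825047-47825431 (29.2-fold, 54 tags), chr7:37310094-37310794 (28.4-fold, 50 tags), chr2:56783103-56783490 (27.9-fold, 48 tags), chr1:1178417-1180016 (26.8-fold, 51 tags), chr20:33091913-33092246 (26.2-fold, 45 tags) and chr22:33844224-33844605 (25.3-fold, 51 tags). With Poisson intervals such as 32.8 to 60.2 for the 45 tags on chromosome 20 and 42.3 to 72.7 for the 56 on chromosome 18, the order among these 7 cannot be told from counting error. The eleventh site had 18.4-fold enrichment.

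Among the first 10, 5 were wider than 500 bp and the other 5 were 334 to 388 bp wide, with a summit 3.5 to 7 bp from the centre of the peak. Over all 36 sites of at least 10-fold enrichment the summit lay a median of 12.5 bp from the centre, against 35.8 bp at the 544 sites under 10-fold. Of the 36, 9 were wider than 500 bp, where all 580 isolated sites have 35, or 6.03%. The median background of these 36 was 1.06 times the average, and 31 of them lay on a background under 2 times, as did 64.3% of all isolated sites. Background was computed from pileup and fold, so a choice by high fold favours low backgrounds, and these values are a description only.

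**Figure D2:**
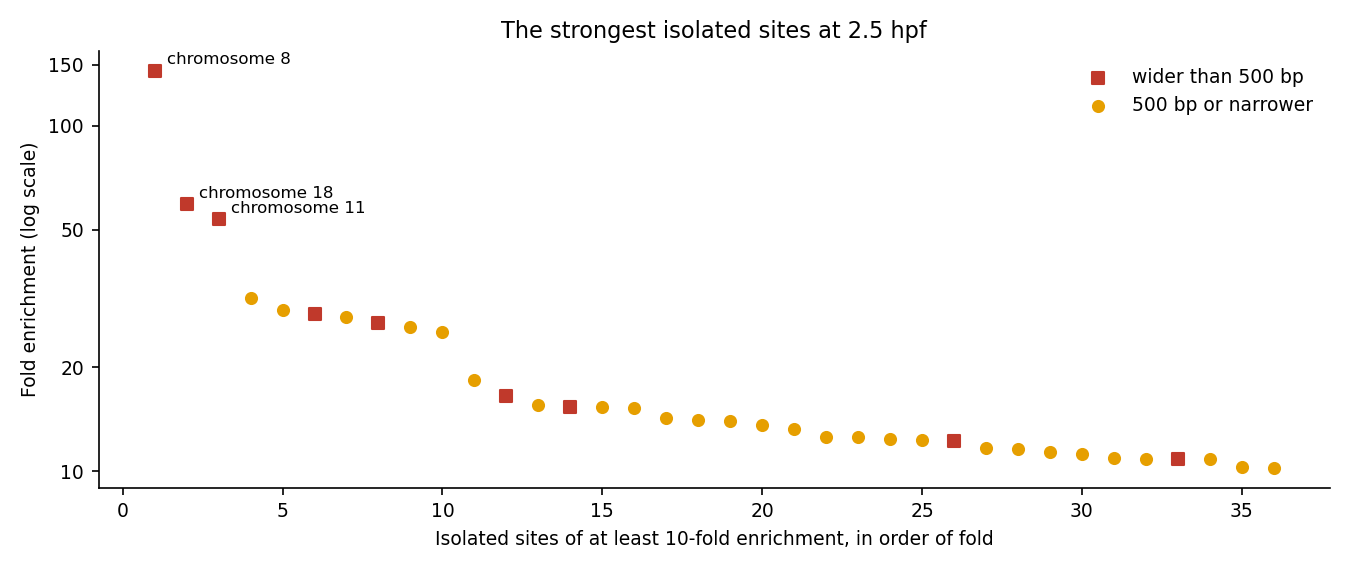
Fold enrichment (log scale) of the 36 isolated sites with at least 10-fold enrichment, in order of fold, with squares for sites wider than 500 bp and circles for narrower ones. The sites on chromosomes 8, 18 and 11 lead at 144, 59.3 and 53.6-fold, the next 7 lie between 25.3 and 31.8-fold, and the rest at 18.4-fold or less.

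At the other extreme, 65 isolated sites had a background over 10 times the average, with many tags but little enrichment. Their median pileup was 76, against 9 at the 373 sites on a background under 2 times, and their median fold 3.18, against 5.34. Of the 113 isolated sites with less than 4-fold enrichment, 52 belonged to this set, where all 580 isolated sites have 11.2% in it. Background was computed from pileup and fold, so a low fold at a high pileup means a high background. The site chr20:6555473-6557138 had 418 tags in both the pileup and the input window, the ceiling that 1 tag kept per position allows on both strands, so its 3.76-fold enrichment depends on the tag totals alone. Close below were chr9:16015393-16016457, with a pileup of 410 on 411 input tags and 3.75-fold enrichment, and chr2:13838801-13839252, with 339 on 390 and 3.26-fold. The site chr20:4645268-4645655 had 319 tags on 317 input tags and 3.77-fold enrichment. Together with the peak on chromosome 8, these are the 5 isolated sites of highest pileup, but the site on chromosome 8 reached its 372 tags on 6 input tags. The third widest isolated site, chr10:12029741-12031389, was also of this kind, at 1649 bp, 314 tags, 377 input tags and 3.13-fold. At chr9:16015393-16016457 and chr20:4645268-4645655 pileup and input tags were nearly equal, so their fold too rests mainly on the tag totals. This was not limited to the highest pileups: chr1:45506901-45507109 had a pileup of 48 on 58 input tags. The other 2.5 hpf peaks had a median pileup of 62. Where the fragment-length window gave their background, at 1198 of the 1431, it held a median of 89.5 input tags. These medians cover different sets and were not compared peak by peak. Some of these peaks had more pileup than input tags, such as 212 on 178 in a crowded window. Where pileup does not exceed the input tags, the fold depends on scaling to the 5245276 Rad21 and 19827134 input tags kept.

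Few isolated sites overlapped a peak of a later list, and stage, library preparation and peak caller cannot be told apart in these counts. A 4.5 hpf Rad21 peak overlapped 2 of the 580, or 0.34% (0.042 to 1.24), where the whole 2.5 hpf list has 0.0995%. A 10 hpf Rad21 peak overlapped 4, or 0.69% (0.19 to 1.76), where the whole list has 0.348%. A CTCF peak of 10 hpf overlapped 0 of 580, which allows a share of up to 0.517% by the limit of 3 counts and of up to 0.634% by the exact interval, and the whole list has 0.149%. Peaks of 4.5 hpf Rad21, 10 hpf Rad21 and CTCF cover 0.09%, 0.256% and 0.174% of the length of the same chromosomes. The centre of an isolated site lay inside such a peak in 0%, 0.172% and 0% of cases. Overlap counts any shared base, so the length share is too low a measure for it, and the difference was not tested. Seen from the later lists, the sites held 2 of the 7144 peaks of 4.5 hpf (0.028%) and 5 of the 18075 Rad21 peaks of 10 hpf (0.028%). Both overlaps with 4.5 hpf and 4 of the 7 overlaps of the 2.5 hpf list with 10 hpf thus fell at isolated sites, counts too small to set them apart from the rest.

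Of these 4 sites, 2 were among the strongest of the list and 2 were not. At chr18:29352022-29354916 the broad 2.5 hpf peak contained a 4.5 hpf Rad21 peak whose centre lay 73 bp from the 2.5 hpf summit, and 10 hpf Rad21 peaks on either side of it, 283 bp before and 172 bp after the summit. The 4.5 hpf peak stood at place 1977 of 7144 in the deposited order of its list, and the 10 hpf peaks at places 10309 and 13329 of 18075. At chr11:3922037-3923047 a 10 hpf Rad21 peak at place 14245 lay inside the 2.5 hpf peak, 241 bp from its summit, and the nearest 4.5 hpf peak was 19748 bp away. The headers do not say what decided that order.

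The site with the lowest fold of these 4 lay at the later peaks of the earliest places. At chr13:43124076-43124484, with 11 tags and 4.21-fold enrichment, the 4.5 hpf peak was 46 bp from the summit and the 10 hpf peak 45 bp to the other side. These stood at places 24 of 7144 and 343 of 18075, and shared 96 and 189 bases with the 2.5 hpf peak. At chr16:381176-381384, with 11 tags and 6.39-fold enrichment, the overlap with a 10 hpf peak was 33 bp at its edge, with the centre 189 bp from the summit. Only 2 isolated sites overlapped both later Rad21 lists. Of these, the site on chromosome 13 stood at the earlier places and had a pileup equal to the median of all isolated sites. The nearest CTCF peaks to these 4 sites lay 4123 bp away at chromosome 16, 18007 bp at chromosome 13, 47705 bp at chromosome 18 and 91956 bp at chromosome 11.

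**Figure D3:**
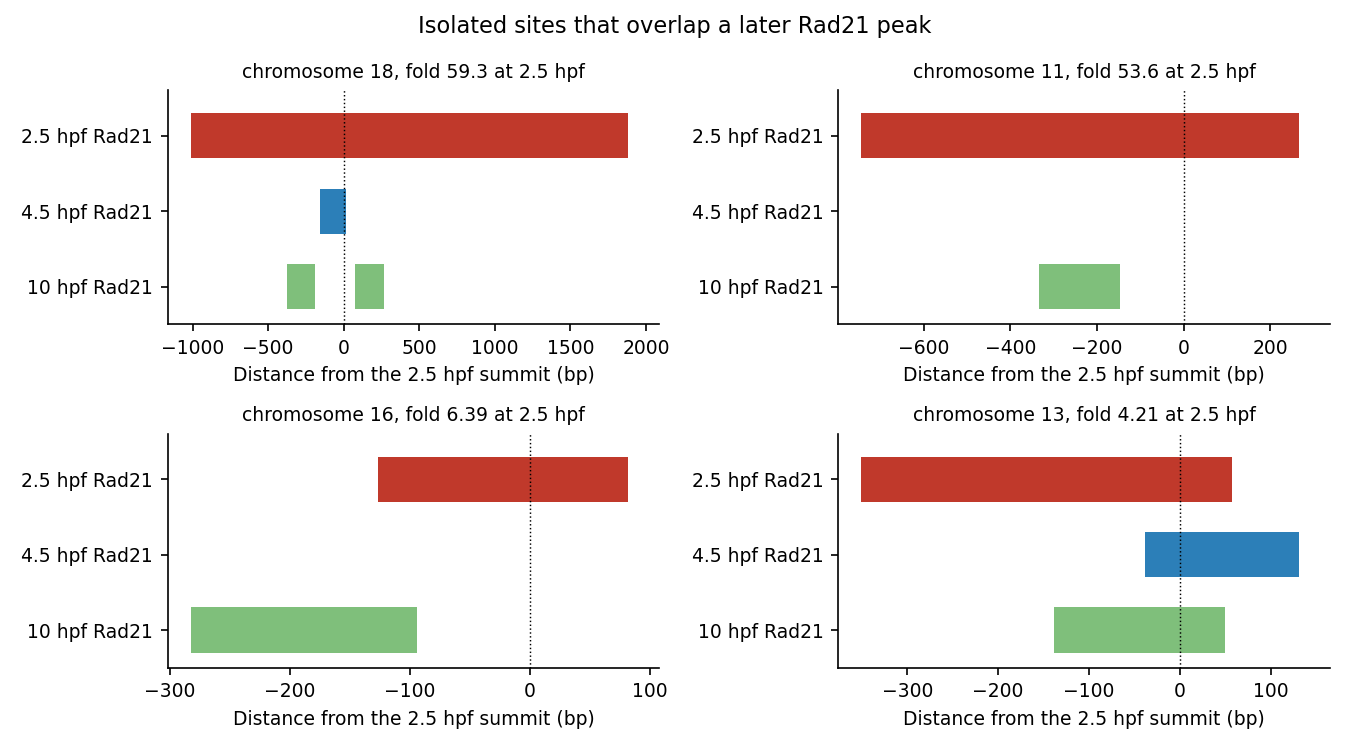
Position in bp from the 2.5 hpf summit of the 4 isolated sites that overlap a later Rad21 peak (top row of each panel, red), with the overlapping 4.5 hpf peaks (middle row, blue) and 10 hpf peaks (bottom row, green). On chromosome 18 the centres of the later peaks lie within 283 bp of the summit inside a 2895 bp site, on chromosome 13 both centres lie within 46 bp of the summit, and on chromosome 16 the 10 hpf peak touches the edge.

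Close neighbours without overlap were also few, with distances here taken between the facing edges of the peaks. Between 0 and 1 kb from a 10 hpf Rad21 peak lay chr24:445021-445359 (12.4-fold, 437 bp away) and chr1:45506901-45507109 (3.0-fold on 58 input tags, 921 bp away), followed by chr17:36114249-36114457 at 1002 bp, chr9:7891464-7891764 (13.9-fold) at 1011 bp and chr15:46190616-46191021 at 1113 bp. The site on chromosome 15 was also the nearest to a 4.5 hpf Rad21 peak without overlap, at 1111 bp. It was followed by chr10:17425616-17425865 (9.66-fold) at 1289 bp, chr18:49871389-49871937 at 1724 bp, chr16:11454009-11454292 at 1948 bp and chr2:14548753-14549441 at 2035 bp. The sites nearest to CTCF were chr17:53734346-53734659 (7.97-fold) at 533 bp, chr21:18595990-18596202 at 710 bp, chr23:4481877-4482086 at 879 bp, chr7:26171-26388 at 1034 bp and chr19:47457708-47458017 at 1153 bp.

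Over longer distances the shares are set beside those of peaks in small runs and of chromosome length, as a description. The centre of an isolated site was a median of 38.9 kb from the nearest 10 hpf Rad21 peak (interval of the median 34.6 to 43.5), 38.1 kb from the nearest CTCF peak and 81.6 kb from the nearest 4.5 hpf Rad21 peak. The 518 peaks in small runs were a median of 65.3 kb from 10 hpf Rad21, 60.2 kb from CTCF and 83.1 kb from 4.5 hpf Rad21. Within 10 kb of a 10 hpf Rad21 peak lay 16.7% (13.8 to 20.0) of the isolated sites and 6.18% (4.26 to 8.61) of the peaks in small runs, where the whole 2.5 hpf list has 7.41% and 22.7% of the length of the same chromosomes lies that close. For CTCF the shares were 17.1% (14.1 to 20.4) of the isolated sites and 5.02% (3.30 to 7.27) of the peaks in small runs, with 8.2% of the whole list and 19% of the length. For 4.5 hpf Rad21 they were 7.59% (5.57 to 10.1) and 3.47% (2.07 to 5.44), with 3.88% of the whole list and 9.80% of the length.

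At 50 kb the isolated sites stood at 59.1% (55.0 to 63.2) for 10 hpf Rad21, 58.6% (54.5 to 62.7) for CTCF and 37.4% (33.5 to 41.5) for 4.5 hpf Rad21, where the whole list has 37.7%, 42.2% and 25.2%. Peaks in small runs stood at 36.9% (32.7 to 41.2) for 10 hpf Rad21, 42.5% (38.2 to 46.9) for CTCF and 35.9% (31.8 to 40.2) for 4.5 hpf Rad21, where the interval overlaps that of the isolated sites. The length shares were 65.6%, 62.7% and 37.3%. The share of isolated sites was thus below the length share at 1, 5 and 10 kb for each of the later lists. Its interval held the length share for 4.5 hpf Rad21 at 1 kb (0.042 to 1.24 against 1.14%) and at 10 kb. It also did so for CTCF at 5 kb (5.72 to 10.24 against 10.18%) and at 10 kb. The interval lay below the length share for 10 hpf Rad21 at each of these distances, for 4.5 hpf Rad21 at 5 kb and for CTCF at 1 kb. Peaks share neighbourhoods and each list is 1 value per condition, so these differences were not tested. The 1 Mb window of an isolated site held a median of 12 Rad21 peaks of 10 hpf, 10 CTCF peaks and 5 Rad21 peaks of 4.5 hpf. For peaks in small runs the medians were 11, 9 and 4, for peaks in crowded windows 7, 6 and 3, and over all 1306 windows of these chromosomes 13, 10 and 5.

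**Figure D4:**
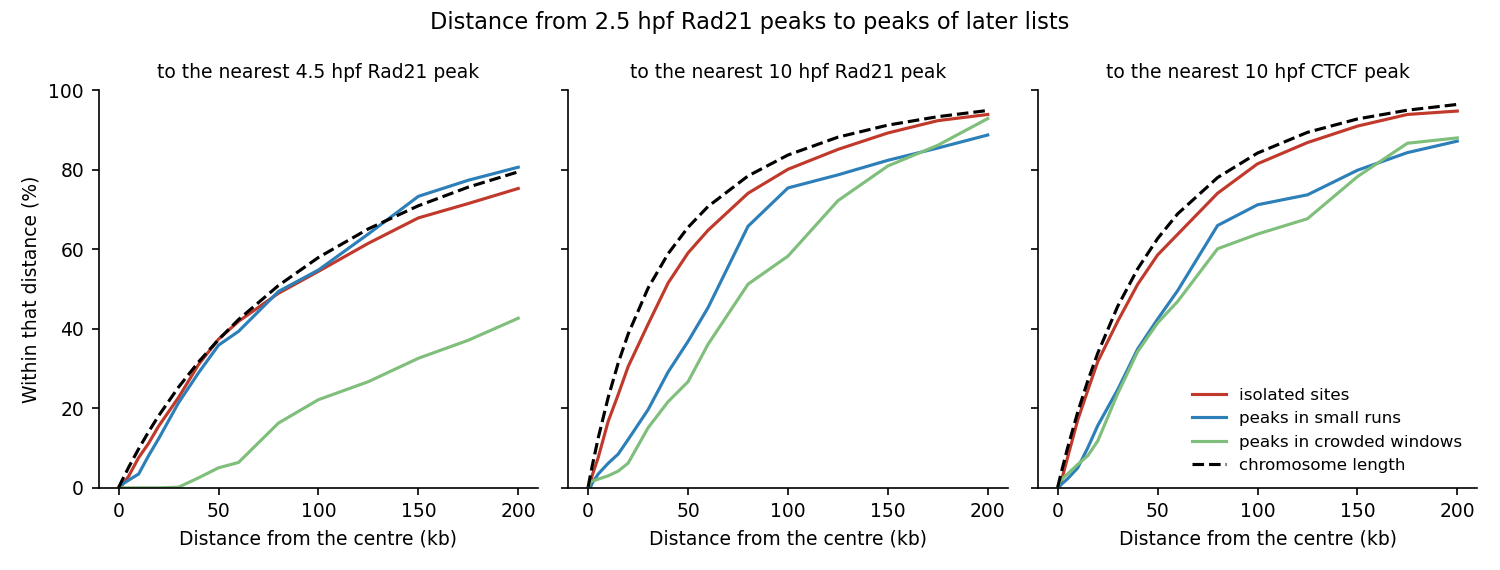
Share in % of 2.5 hpf Rad21 peaks whose centre lies within a distance in kb of the nearest 4.5 hpf Rad21, 10 hpf Rad21 or 10 hpf CTCF peak, for isolated sites (red), peaks in small runs (blue) and peaks in crowded windows (green), with the share of chromosome length as a dashed line. At 10 kb of 10 hpf Rad21 the isolated sites are at 16.7%, the small runs at 6.18% and the chromosome length at 22.7%.

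Surroundings were also counted by fold and width. Of the 36 with at least 10-fold enrichment, 11 lay within 10 kb of a 10 hpf Rad21 peak, or 30.6% (16.3 to 48.1), against 15.8% (12.8 to 19.2) of the 544 others. For CTCF it was 2, or 5.56% (0.68 to 18.7), against 17.8% (14.7 to 21.3). For 4.5 hpf Rad21 it was 3, or 8.33% (1.75 to 22.5), against 7.54% (5.46 to 10.1). The intervals overlap in each case at 10 kb. Within 1 kb of a 10 hpf Rad21 peak lay 3 of the 36, or 8.33% (1.75 to 22.5), against 2 of the 544, or 0.368% (0.0446 to 1.32). Those intervals do not overlap, but the counts are small and the difference was not tested. For 4.5 hpf Rad21 and CTCF the intervals overlap at 1 kb too. The 35 sites wider than 500 bp lay within 10 kb of a 10 hpf Rad21 peak in 34.3% (19.1 to 52.2) of cases and of a 4.5 hpf peak in 25.7% (12.5 to 43.3), and the 130 sites of 209 bp in 16.9% (10.9 to 24.5) and 4.62% (1.71 to 9.78). The intervals by width overlap for 10 hpf Rad21 and do not for 4.5 hpf Rad21, a difference that was not tested. Only the widest and narrowest sites are set side by side here. Over all 580 isolated sites the shares were 16.7% for 10 hpf Rad21 and 7.59% for 4.5 hpf Rad21. For CTCF the shares were 17.1% (6.56 to 33.6) of the wide sites and 16.2% (10.3 to 23.6) of those of 209 bp.

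The shares by background overlapped in their intervals. Within 10 kb of a 10 hpf Rad21 peak lay 18.5% (9.92 to 30.0) of the 65 sites over 10 times the average, 21.1% (14.7 to 28.8) of the 142 between 2 and 10 times and 14.7% (11.3 to 18.8) of the 373 under 2 times. For CTCF these shares were 16.9%, 16.2% and 17.4%.

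The spread over the genome is given as a description only, since the rule used these positions and places every run among the other peaks. Isolated sites occupied 444 of 1306 windows of 1 Mb, or 34.0%, with 1 site in 342 windows, 2 in 76 and 3 or more in 26, and 313 of them, or 54.0%, were the only 2.5 hpf peak of their window. The distance to the nearest 2.5 hpf peak had a median of 573 kb and reached 8503 kb. Density over the 24 chromosomes was 0.448 sites per Mb. It was highest on chromosome 15 at 0.654 (Poisson interval 0.444 to 0.928), chromosome 18 at 0.602 and chromosome 5 at 0.595, and lowest on chromosome 20 at 0.305 (0.177 to 0.488), chromosome 10 at 0.322 and chromosome 12 at 0.335. The highest was 2.15 times the lowest, and the intervals of all 24 chromosomes held the overall density. Among the other peaks the highest density, on chromosome 8, was 47.0 times the lowest, on chromosome 1.

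**Figure D5:**
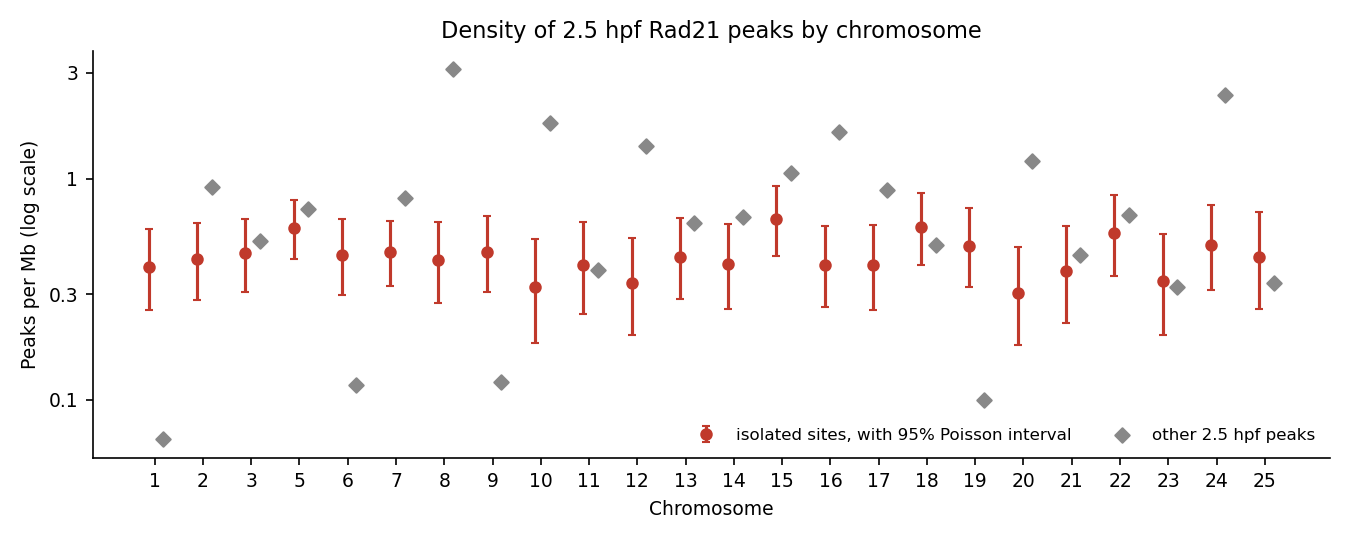
Density in peaks per Mb (log scale) on 24 chromosomes of isolated sites (red circles, with 95% Poisson intervals that cover counting error only) and of the other 2.5 hpf Rad21 peaks (grey diamonds). Isolated sites range from 0.305 to 0.654 per Mb and the other peaks from 0.0663 to 3.12 per Mb.

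Isolated sites made up a larger share near chromosome ends than the length there. Of the 580, 59, or 10.2% (7.83 to 12.9), lay within 1 Mb of either end of a chromosome, and these megabases make up 3.71% of the length. The shares were 7.91% (6.39 to 9.65) for the other 2.5 hpf peaks on the same chromosomes, 6.62% (6.04 to 7.23) for 4.5 hpf Rad21, 4.57% (4.27 to 4.89) for 10 hpf Rad21 and 5.17% (4.80 to 5.55) for CTCF, so all lists were above the length share. Of the 59 sites near ends, 35.6% (23.6 to 49.1) lay within 10 kb of a 10 hpf Rad21 peak, against 21.6% (13.5 to 31.6) of the 88 other peaks near ends and 28% of the length there. For CTCF the shares were 30.5% (19.2 to 43.9), 23.9% (15.4 to 34.1) and 25.2%, so the intervals overlap and those of the isolated sites hold the length share for both lists. For 4.5 hpf Rad21 they were 16.9% (8.44 to 29.0), 2.27% (0.28 to 7.97) and 16.7%. Chromosome ends were taken as the last position in any list, so the true ends may lie farther out. On chromosome 18 that position was the end of an isolated site, chr18:49871389-49871937, so the definition itself placed this site at an end. The rule chose the sites by position, so the shares near ends are a description and were not tested.

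Sites on either side of the thresholds are given as a description. The pair nearest to each other inside the rule, chr11:31935951-31936199 (4.39-fold) and chr11:31946328-31946589 (2.46-fold), lay 10129 bp apart, and the next was chr5:44002233-44002480 (4.66-fold) at 10532 bp. Just outside were chr5:44851717-44852063 (2.60-fold) at 9427 bp, chr6:49219547-49219941 (5.18-fold) at 9413 bp and chr18:29987329-29987627 (4.79-fold) at 9224 bp. Windows of 19 peaks held 6 isolated sites, on chromosomes 2 and 7, with 2.51 to 4.64-fold enrichment. Windows of 20 or more held 14 peaks with no neighbour within 10 kb, among them chr15:7695334-7695548 (8.54-fold, in a window of 21) with no peak nearer than 477 kb. The fullest windows held 5 isolated sites each. Those from 44 Mb on chromosome 5 had 3.84 to 5.22-fold enrichment on backgrounds of 2.69 to 4.00 times the average, and those from 15 Mb on chromosome 24 had 3.89 to 5.12-fold enrichment on 1.00 to 1.40 times.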

How the data were processed

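The submitters' processing notes name Bowtie2 2.2.1, HOMER and the Zv9 build. Per the file headers, MACS2 (2.1.0.20151222) made the 2.5 hpf list by setting the pooled Rad21 libraries against the pooled inputs with a q-value limit of 0.05 and 1 tag kept per position. This left 5245276 of 15362000 immunoprecipitated tags and 19827134 of 21987080 input tags. The authors deposited for each of these peaks the pileup (a signal: tag coverage), its ratio to the modelled background (fold enrichment) and −log10 of p and q. The header labels both of the latter columns as −log10 of q, and the earlier one was read as p. The other 3 lists came from HOMER, per the file headers, with a false discovery limit of 0.001 and a required 4-fold over input and over the local 10000 bp. Their deposited score is constant, so only their positions were used. The headers give 14255160 tags for 4.5 hpf Rad21, 13260105 for 10 hpf Rad21 and 28291282 for CTCF. The sources used here do not say whether those lists pool libraries or how deep each library was.

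Medians and shares by distance to later peaks run from the centre of a site, distances of single named sites and gaps between 2.5 hpf peaks run between facing edges, and overlap means at least 1 shared base. The share of length within a distance was computed exactly over the chromosomes other than 4, each ending at the last position in any list. Background was (pileup + 1) / fold − 1, divided by the average of 5245276 tags of 209 bp over 1450000000 bp. Input tags were whole within 0.005 of a tag or the rounding of the fold, a reading that the headers do not state. In simulated data for the 2011 peaks the source of the background, with its tag number where it had one, was recovered in 97.1%. The simulation used the same formula, drew each source equally often and spread tag numbers evenly. It therefore checks the arithmetic and cannot decide whether the reading is right. Intervals of shares are exact Clopper-Pearson and those of counts exact Poisson, at 95%. Tags without molecular identifiers are not independent molecules, so intervals cover counting error only. Sites named in the text are the 10 of highest fold, the 5 of highest pileup, the 3 widest, the 3 of highest and of lowest background, with ties by position, those overlapping a later peak, the 5 nearest to each later list, those beside the thresholds and the fullest windows. The rule for the sites and the list of alternatives were chosen with earlier results of these data known. Python 3.11.15 with pandas 2.3.3 and scipy 1.17.1 was used.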

Additional observations from a re-analysis of the deposited data

How the results depend on the processing

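The number of isolated sites was 609 with a neighbour distance of 5 kb, 547 with 20 kb, 558 with fewer than 10 peaks per window, 594 with no limit per window, 631 with chromosome 4 kept, 548 at q of at most 0.01 and 467 at 4-fold or more. It moved by over 1.5 times, to 373, with only backgrounds under 2 times the average. The median fold was 5.22 at 4-fold or more and 5.34 on those backgrounds, and the median background 1.32 and 1.15, outside the interval of the median as reported in each case, since these settings select on fold or background. Overlap with 4.5 hpf Rad21 ranged from 0.27% to 0.43% and with 10 hpf Rad21 from 0.52% to 1.03% over all alternatives. Overlap with CTCF was 0% under each alternative except for peaks up to 1 kb apart, which gave 0.52%. The median distance to 10 hpf Rad21 ranged from 37.6 to 43.1 kb. Windows starting 0.5 Mb later, an alternative chosen after seeing the data, gave 577 sites. No paired analysis was possible because the lists hold no value per library. At a median pileup of 11 tags, fold enrichments of single sites are imprecise, and weaker sites may be missing from any list.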
